A study of Mus musculus with 35 samples.

Results

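Skin wounds of Col5a1CKO mice were compared between day 19 and day 14 after wounding, with 3 wounds at day 19 (replicates a to c) and 7 at day 14 (replicates a to g) out of 35 wounds in the whole series. In Col5a1CKO mice (Col1a2CreERT with Col5a1 fl/fl), tamoxifen, begun before wounding and continued after it, deletes Col5a1 in cells with Col1a2 enhancer activity, which in skin are mainly fibroblasts, so that Col5a1 of other cells is left. All 10 wounds were full thickness excisions on the back and carry the same alleles and tamoxifen treatment. Legends of the paper list 7 Col5a1CKO wounds with vehicle for RNA-seq at day 14 and name no vehicle for day 19. The titles do not say which wounds received vehicle, and its effect could not be told apart from day. The study used young adult mice of both sexes, and the sources used here give no age or sex for single wounds. RNA came from a punch of the middle of the wound or scar and therefore mixes every cell type in that tissue. The titles place the 3 day 19 wounds among those without transferred cells, whereas the treatment field of the same records names WT fibroblasts; the titles were followed, and an effect of such a transfer could not be told apart from day. Wounds of Col5a1CKO mice labelled as fibroblast recipients at day 14 were left out of the comparison.

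A wound at this stage passes from granulation tissue to a scar. Granulation tissue is rich in inflammatory cells, new vessels and fibroblasts that lay down collagen III and fibronectin. As it matures, neutrophils and macrophages leave, keratinocytes cover the surface, and fibroblasts build a matrix dominated by collagen I, whose fibrils need collagen V to begin. The comparison asks how far the RNA of wounds with Col5a1 deleted in fibroblasts moved along this course over the interval.

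Only replicates f and g of the day 14 wounds share a library set with the day 19 wounds. The labels name no batch; the sets were read from the counts, as the difference in median log2 CPM (TMM-scaled counts, relative to library size) between GC-rich and GC-poor genes. It was 0.99 to 1.20 in f, g and the 3 day 19 wounds, against -1.17 to -0.75 in replicates a to e. Replicates f and g also share with day 19 the expression of Xist, the RNA made from the inactive X chromosome of female cells, at 278 to 752 CPM; it was 628 CPM in replicate e and at most 0.811 CPM in replicates a to d. Each change was therefore measured with all 7 day 14 wounds and with f and g alone. Depth was 18913202 to 32625199 counts per wound over the rows used.

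Day 19 wounds differed from the 7 day 14 wounds in 877 genes, of which 287 were higher and 590 lower at day 19. These are genes with a Benjamini-Hochberg adjusted p under 0.05 from edgeR's quasi-likelihood test and at least a 2-fold change. They make up 1.87% and 3.85% of the 15327 genes tested. Against f and g alone, edgeR called 0 genes of 15240 (smallest adjusted p = 0.0786); at an unadjusted p, 926 genes were higher and 631 lower, and DESeq2 called 1022 and 675. A change is written as kept below where it was called with all 7 wounds and also reached 2-fold in the same direction against f and g. This held for 210 of the 287 higher genes and 175 of the 590 lower genes. These are 1.39% and 1.16% of the 15092 genes tested both ways. Counts of list members called or kept below are to be read beside these shares of all genes, and none was tested against them.

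The calls rested on having all 3 day 19 wounds. With day 19 replicate a left out, edgeR called 0 genes in either direction, with 216 genes at an adjusted p under 0.10 (smallest 0.0591). Without b it likewise called 0 (smallest adjusted p = 0.0726), and without c 12 higher and 9 lower.

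Transcript length moved with the day difference. The kept higher genes had a median transcript of 4492.5 bp and the kept lower genes one of 976 bp, against 2752 bp for all genes tested. From the shortest to the longest 10% of genes, the median log2 fold change ran from -0.61 to 0.20 with all 7 wounds and from -0.69 to 0.47 with f and g, so the shared library set did not remove it. GC content moved with the difference only when replicates a to e were included: from the GC-poorest to the GC-richest 10% the median ran from -0.94 to 0.47 with all 7 wounds and from -0.08 to -0.13 with f and g. After removal of each library's smooth length trend, 65 genes were kept higher and 37 lower (0.431% and 0.245%). After removal of the length and GC trends together, 3 were kept higher (Tram2, Rcan1 and Prm1) and 5 lower (Rps14, Nsa2, Sec61g, Myeov2 and Rps15a), while Tmem167 was called lower without reaching 2-fold against f and g. Whether the length trend is a property of the RNA, the libraries or the tissue was not tested.

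**Figure D1:**
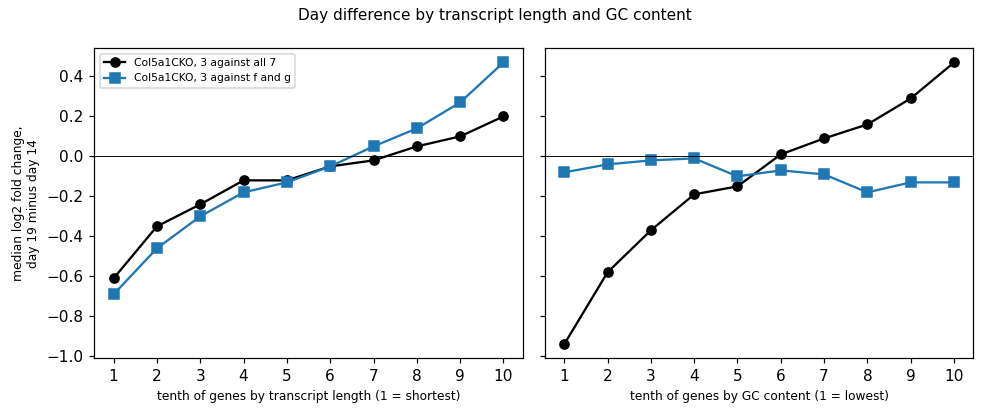
Median log2 fold change (y axis, day 19 minus day 14) in bins of 10% of the genes tested, ordered by transcript length on the left and by GC content on the right, for 3 day 19 wounds against all 7 (black circles) or against f and g (blue squares). The line on transcript length climbs in both fits, from -0.61 to 0.20 and from -0.69 to 0.47, while the line on GC content climbs only with all 7.

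Col5a1 itself, which encodes the alpha 1 chain of collagen V, was not lower at day 19. It had 166, 353 and 643 CPM (lowest, median and highest of 7) at day 14, with 351 in f and 233 in g, and 1171, 911 and 655 CPM at day 19. All 3 day 19 wounds lay above every day 14 wound. The difference of 531.5 CPM between means had an exact 2-sided permutation p of 0.0167 (3 against 7), or 0.0668 after Benjamini-Hochberg adjustment over 4 tests of Col5a1, and 0.0167 is the smallest p this test can give with 3 against 7. Both f and g also lay below every day 19 wound, and the exact p against them was 0.20, the smallest the test can give with 3 against 2. Col1a1, the main collagen of the scar, had moved further, so relative to Col1a1 of the same wound Col5a1 did not gain. Its CPM per Col1a1 CPM was 0.0145 to 0.0465 at day 14 and 0.0144 to 0.0188 at day 19 (exact permutation p = 0.10, adjusted 0.20). In WT wounds the same ratio was 0.127 to 0.164 at day 14 and 0.106 to 0.138 at day 19. The level of Col5a1 did not separate the genotypes in the same way. It was 332 to 354 CPM in WT day 14 replicates e to g and 851 to 2334 CPM in a to d. At WT day 19 it was 2648, 511 and 5855 CPM.

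Collagen genes included several that rose. Of 40 collagen genes tested, 8 were called higher and 0 lower, and 7 of the 8 were kept. Over all genes, 1.87% were called higher and 1.39% kept higher. Their median log2 fold change was 0.87 with all 7 wounds and 1.61 with f and g, beside -0.12 and -0.08 over all genes tested. Of the 40, 36 were positive against f and g, where 45.5% of all genes were. Collagen transcripts are long, with a median of 6277 bp. With length and GC trends removed the list's median was -0.01 with all 7 wounds and 1.16 with f and g.

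Col1a1 (chromosome 11, 94797538 to 94814356, plus strand, NCBI37) had 7740, 18560 and 24240 CPM at day 14, with 20080 in f and 10440 in g, and 62380, 58050 and 45610 CPM at day 19. The lowest day 19 wound was thus above the highest day 14 wound. The log2 fold change was 1.59 (SE 0.38, edgeR adjusted p = 0.0359) with all 7 and 1.81 (SE 0.60) with f and g. With both trends removed these were 0.41 and 1.42. Per transcript length and depth (RPKM), the median level of Col1a1 was 3866 at day 14 and 11800 at day 19, while that of Col3a1, the collagen of early granulation tissue, was 4989 at day 14 and 9074 at day 19. Col3a1 did not pass, with a log2 fold change of 0.56 (adjusted p = 0.484); replicate b had 61180 CPM at day 14 and the day 19 wounds 40910 to 56290. Against f and g, at 20970 and 12720 CPM, Col3a1 was at 1.55 (SE 0.56), close to the 1.81 of Col1a1.

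Other collagen genes that were called and kept serve different structures. Col7a1, which forms the anchoring fibrils beneath the epidermis, had 574 to 1651 CPM at day 14 and 3644, 2640 and 3370 CPM at day 19, with a log2 fold change of 1.63 (SE 0.38). Col4a2, a chain of the basement membrane network, had 243 to 723 and then 1266, 1241 and 1381 CPM. Col6a3, of the beaded filaments around cells, had 990.1 to 2899 and then 7234, 6120 and 5215 CPM. Col27a1 and the low-level Col20a1 were kept too, at 1.31 and 2.25 on the log2 scale. With both trends removed Col7a1, Col4a2, Col6a3 and Col27a1 were at 0.12, 0.11, 0.50 and 0.06 with all 7, and Col20a1 at 1.38. With f and g the same 5 were at 1.35, 1.26, 1.51, 1.13 and 1.93. Hspg2 (chromosome 4, 137024634 to 137126545, plus strand, NCBI37) encodes perlecan, the heparan sulfate proteoglycan of basement membranes, and was among the genes with the smallest adjusted p. It had 251, 513 and 659.9 CPM at day 14 and 3319, 2776 and 2452 CPM at day 19, a log2 fold change of 2.41 (SE 0.30, adjusted p = 0.00776) with all 7 and 2.66 (SE 0.41) with f and g. Removal of both trends lowered the first value to 0.83 and the second to 1.70.

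**Figure D2:**
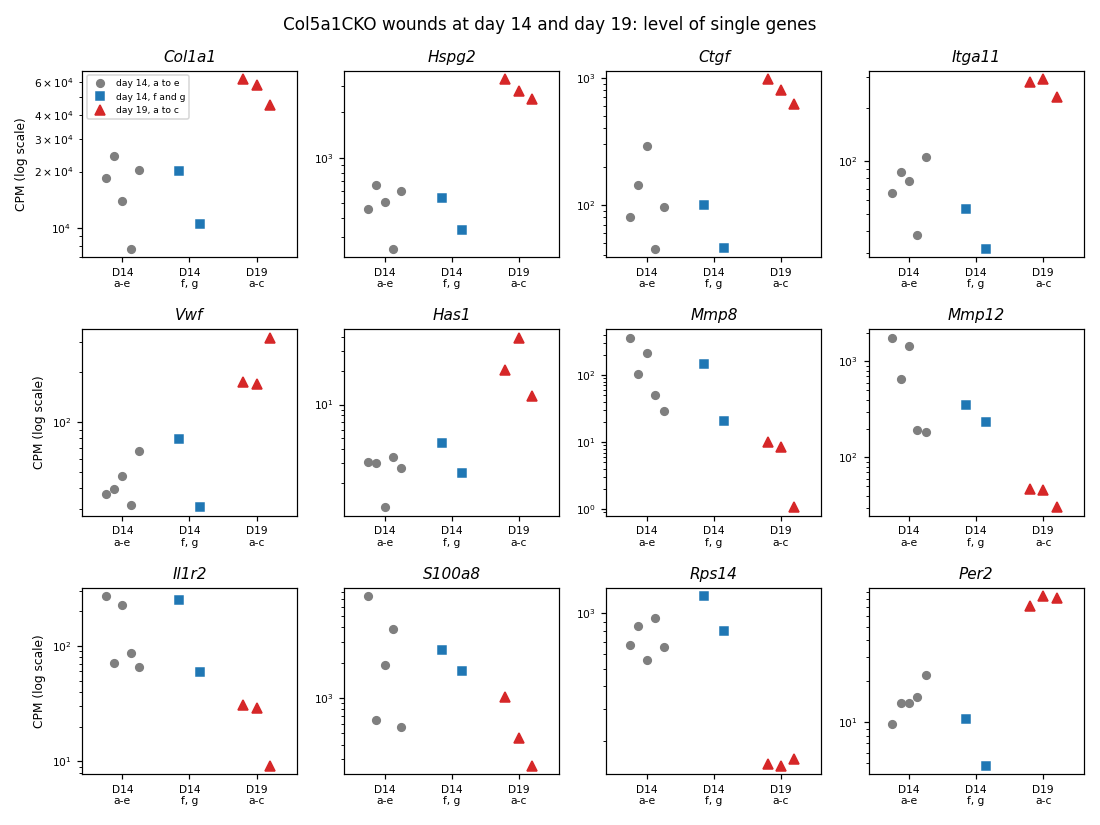
CPM on a log axis of 12 genes in each Col5a1CKO wound, with day 14 replicates a to e as grey circles, day 14 f and g as blue squares and day 19 as red triangles. The day 19 wounds lie outside the range of all 7 day 14 wounds for each gene shown except S100a8, where day 19 replicate a, at 1012 CPM, is above 2 of the day 14 wounds.

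Enzymes and proteins that assemble the matrix moved less. Of 24 collagen-modifying enzymes, 2 were called and kept higher: Adamts14, which trims the amino end of procollagens (20.2 to 70.8 CPM, then 187, 165 and 132), and Loxl1, which cross-links elastin (121 to 438 CPM, then 761, 765 and 618). With both trends removed Adamts14 and Loxl1 were at 0.36 and 0.30 with all 7, and at 1.04 and 0.81 with f and g. The list's median was 0.46 with all 7 and 0.96 with f and g. Serpinh1, the collagen chaperone, and Sparc, a collagen-binding protein, were at 0.43 and 0.16 and did not pass. Among 13 small leucine-rich proteoglycans, which coat collagen fibrils, Podn alone was called and kept, at 8.46 to 33.5 CPM and then 72.8, 66.9 and 61.8 CPM. Lum and Dcn, the lumican and decorin genes, differed in sign between the fits: Lum was at -0.91 with all 7 and 1.33 with f and g, and Dcn at -1.11 and 0.21, none of them called. Lum had 421 CPM in g and 821 in f but 2138 to 4266 CPM in replicates a to e.

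Elastic fiber genes had a median of 0.64 with all 7 and 1.31 with f and g over 17 genes. With both trends removed the list's median was 0.17 with all 7 and 0.98 with f and g. Ltbp4 and Ltbp3, which bind latent TGF-beta and help to assemble elastic fibers, were kept, at 1.91 (SE 0.38) and 1.39 (SE 0.30). Removal of both trends left them at 0.69 and 0.15 with all 7, and at 1.08 and 0.98 with f and g. Ltbp4 had 30.1 to 116 CPM at day 14 and 224, 284 and 424 CPM at day 19. Fbn1, the fibrillin of the microfibrils, did not pass with all 7 (0.64, adjusted p = 0.496). It was at 1.88 (SE 0.33) with f and g. Replicate b had 3567 CPM, with the other day 14 wounds at 545 to 1250 and the day 19 wounds at 1681 to 2435. Fbln2, a fibulin, was at 1.12 with an adjusted p of 0.0534. Has1, a hyaluronan synthase named here after its values were seen, rose from 1.23 to 4.58 CPM at day 14 to 20.4, 39.1 and 11.9 CPM at day 19.

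Matricellular genes, which regulate cells from the matrix, included 3 that rose. Of 21 genes in the list 3 were called and all 3 were kept, beside 1.87% and 1.39% of all genes. The list's median was 0.72 with all 7 and 1.47 with f and g. Ctgf (CCN2, chromosome 10, 24315248 to 24318489, plus strand, NCBI37) encodes a profibrotic protein whose transcription is driven by YAP and TAZ through TEAD factors. It had 45.3, 96.3 and 293 CPM at day 14, with 45.5 in g, and 974, 805 and 623 CPM at day 19. All day 19 wounds were at least 2-fold above replicate c, the highest day 14 wound. The log2 fold change was 2.65 (SE 0.50, adjusted p = 0.0175) with all 7, 3.41 (SE 0.52) with f and g, and 2.56 with both trends removed. Cyr61 (CCN1), its close relative, had 119.9 to 286 CPM and then 697, 541 and 728 CPM, at 1.57 (SE 0.25) and 1.50 with both trends removed. Thbs4, a thrombospondin of tendon and muscle matrix, was kept at 2.86 (SE 0.71). Postn, the periostin gene, was at -0.45 with all 7 and 1.49 with f and g, neither called; f and g had 5275 and 3430 CPM, replicates a to e 12480 to 27220 and the day 19 wounds 11020 to 13350.

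The promoter of Cyr61 (Ccn1 in RefSeq) is shown because TEAD factors bind a 6-base element, CATTCC or GGAATG on the opposite strand, and this gene rose with either set of day 14 wounds. In the window from 250 bases before to 50 bases after the start at chr3:145649936-145650235 on the minus strand (RefSeq, GRCm38.p6), the element, in capitals, occurs once and begins 103 bases before the start.
Cyr61: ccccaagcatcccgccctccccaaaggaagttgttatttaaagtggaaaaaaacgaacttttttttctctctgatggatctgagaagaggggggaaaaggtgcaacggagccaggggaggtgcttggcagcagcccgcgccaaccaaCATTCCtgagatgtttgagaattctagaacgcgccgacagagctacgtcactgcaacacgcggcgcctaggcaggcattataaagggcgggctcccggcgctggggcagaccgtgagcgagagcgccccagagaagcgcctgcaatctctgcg
The element, on either strand, lies in 14.7% of the 32851 promoter windows of the same length, so its presence here is a description. Ctgf has no entry in that table.

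Integrins and the contractile apparatus changed in a few genes. Itga11, whose protein pairs with beta 1 integrin as a collagen receptor of fibroblasts, was the kept member among 14 integrin genes tested. It had 31.9, 65.9 and 105 CPM at day 14, with 53.9 in f and 31.9 in g, and 279.9, 292 and 233 CPM at day 19, a log2 fold change of 1.87 (SE 0.34) with all 7 and 2.60 (SE 0.34) with f and g. Itga5, the fibronectin receptor chain, had 142 to 458 CPM and then 819, 679.9 and 529 CPM and missed the threshold (adjusted p = 0.0689). Itgav and Itgb1 were negative with all 7, at -0.72 and -0.56, and positive with f and g, at 0.58 and 0.68, with no call. Of 22 contractile and smooth muscle genes, 2 were called higher, beside 1.87% of all genes, and Cspg4, the NG2 proteoglycan of pericytes, was kept. Its 7 day 14 wounds had 4.38 to 11.1 CPM and its day 19 wounds 42.1, 41.4 and 42.4 CPM, at 2.17 (SE 0.25). Acta2, the smooth muscle actin of myofibroblasts, was at 0.10 (SE 0.38, adjusted p = 0.895), with 389 to 1307 CPM at day 14 and 864 to 1242 at day 19.

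Of the vessel genes, 5 rose. Of 18 endothelial genes, 5 were called and kept higher, beside 1.87% of all genes called and 1.39% kept higher. All 18 were positive with all 7 wounds (43.2% of all genes were). Their median was 0.76 with all 7, 0.62 with f and g and 0.58 with all 7 and both trends removed. Vwf (chromosome 6, 125496792 to 125636697, plus strand, NCBI37), the clotting factor stored in endothelium, had 30.8 to 79.3 CPM and then 174, 169 and 320 CPM, a log2 fold change of 2.07 (SE 0.33, adjusted p = 0.012). Robo4, a guidance receptor of endothelium, was at 1.50 and Flt1, a VEGF receptor, at 1.34. Tie1 and Cdh5, the angiopoietin co-receptor and the junction cadherin, were at 1.25 and 1.07. Robo4, Tie1 and Cdh5 were highest among day 14 wounds in f, at 32.1, 75.0 and 156 CPM, and lower in g, at 14.9, 27.6 and 69.3, so f and g give different sizes for these changes. The lymphatic list was smaller: Reln was kept among 6 genes, and Flt4, the VEGF receptor of lymphatic vessels, had 1.31 to 19.4 CPM and then 47.1, 37.6 and 21.7 CPM without a call (adjusted p = 0.0677). In bulk tissue, more cells of a type and more RNA per cell cannot be told apart.

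**Figure D3:**
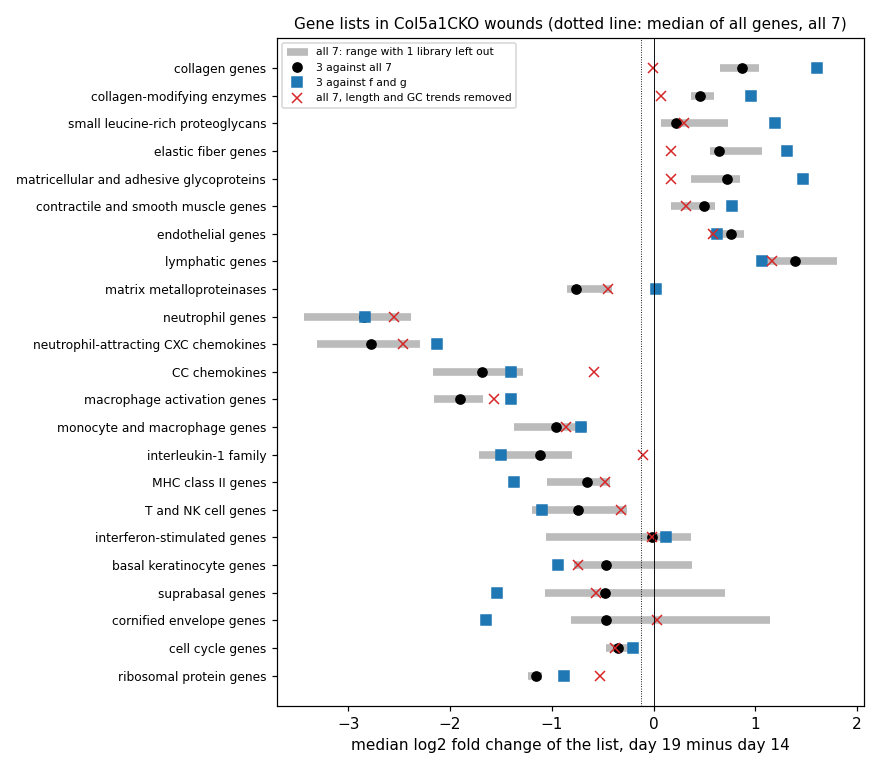
Median log2 fold change (x axis) of each gene list at day 19 against all 7 day 14 wounds (black circles), against f and g (blue squares), and against all 7 with length and GC trends removed (red crosses), with grey bars for the range when any 1 library is left out. The collagen, elastic fiber, matricellular and endothelial lists lie to the right. The neutrophil and macrophage lists lie to the left. The matrix metalloproteinase list lies to the left with all 7 (-0.76) but is at 0.02 with f and g. With all 7 the collagen median moves from 0.87 to -0.01 when both trends are removed. With f and g it moves from 1.61 to 1.16, of which the second is not drawn.

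Most lists of inflammatory genes pointed the other way, but few genes passed the test and the day 14 wounds differed widely among themselves. All 18 neutrophil genes tested were lower at day 19 in both fits, with a median log2 fold change of -2.85 with all 7 and -2.84 with f and g, and 4 of the 18 did not overlap between days (7.45% of all genes were lower without overlap and 10.4% higher). Their summed level was 1865, 8054 and 21930 CPM (lowest, median, highest) at day 14, with 11710 in f and 5405 in g, and 3318, 1573 and 763.6 CPM at day 19. Mmp8, the neutrophil collagenase, was the called and kept member. It had 20.6, 102 and 360.3 CPM at day 14 and 10.2, 8.56 and 1.08 CPM at day 19, a log2 fold change of -4.48 (SE 1.20, adjusted p = 0.0499). S100a8 and S100a9, the calprotectin subunits, had 566 to 7364 and 879.7 to 10560 CPM at day 14 and 265 to 1012 and 328 to 1636 CPM at day 19. Both overlapped and neither passed (adjusted p = 0.109 and 0.0963). Their log2 fold changes with all 7 were -2.37 and -2.48, and -0.50 and -1.05 with both trends removed.

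Chemokines that attract neutrophils were all lower, with 0 of 7 called. Cxcl2 had 70.8, 429 and 1833 CPM at day 14 and 76.7, 50.3 and 3.34 CPM at day 19, at -4.27 (SE 1.42, adjusted p = 0.0887). Cxcl3 did not overlap, at 59.5 to 972 and then 35.6, 20.2 and 1.34 CPM (adjusted p = 0.0677). Cxcl5 and Cxcl1 were at -2.45 and -1.86 with all 7 but at -0.24 and -0.21 with f and g, where g had 11.2 and 15.1 CPM. Among 13 CC chemokines, which draw monocytes, Ccl6 and Ccl9 were kept. Ccl6 had 97.1, 282 and 535 CPM and then 63.3, 75.3 and 26.5 CPM, at -2.54 (SE 0.62, adjusted p = 0.0371), and Ccl9 was at -2.51 (SE 0.64). Ccr2, the receptor that brings monocytes out of blood, had 97.8 to 324 CPM and then 66.2, 79.4 and 16.2 CPM, at -1.93 (SE 0.53) with all 7 and -1.24 (SE 0.71) with f and g.

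The monocyte and macrophage list was nearer to its day 14 level than the neutrophil list, though its members differed. The 22 monocyte and macrophage genes had a median of -0.96 with all 7 and -0.71 with f and g. Ccr2 was the called member, where 3.85% of all genes were called lower. Lyz2, the lysozyme of myeloid cells, had 875 to 3479 CPM at day 14 and 1553, 1411 and 328 CPM at day 19 and did not pass. Clec4d and Cd14, of the same list, were further down, at -3.10 and -2.15 with all 7. With f and g they were at -2.02 and -2.38, and neither was called. The 12 macrophage activation genes had a median of -1.90 and 0 called. Mmp12, the macrophage elastase (chromosome 9, 7344381 to 7369499, plus strand, NCBI37), had 186, 353 and 1766 CPM at day 14 and 46.8, 45.8 and 30.4 CPM at day 19, without overlap. Its log2 fold change was -4.24 (SE 0.96, adjusted p = 0.0313) with all 7 and -2.88 (SE 0.32) with f and g. Of 18 matrix metalloproteinases, 2 were called higher (Mmp17, kept, and Mmp11, not kept) and 2 lower (Mmp8 and Mmp12, both kept), while Mmp2, the gelatinase of fibroblasts, was at 0.87 and did not pass.

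The interleukin-1 family had a median of -1.12 with all 7 and -1.50 with f and g over 13 genes. With both trends removed these were -0.10 and -1.28. Il1r2, the decoy receptor made by neutrophils, had 58.8, 86.6 and 268 CPM and then 30.6, 28.7 and 9.20 CPM, at -2.83 (SE 0.70). Il1rap, the shared co-receptor, was kept at -2.13 (SE 0.58). Il1b itself had 268 to 4870 CPM at day 14 and 436, 285 and 24.9 CPM at day 19, and overlapped (adjusted p = 0.127). Of 15 genes in the MHC class II list, Cd209a was kept, at 2.03 to 8.77 CPM and then 0.737, 0.909 and 1.75 CPM. Cd209a encodes a lectin of dendritic cells and is not a class II gene. Cd74 and H2-Aa were higher in f and g than in replicates a to e, so their values were -0.31 and -0.84 with all 7 and -1.30 and -1.37 with f and g, none called. T and NK cell genes (median -0.74, 0 of 20 called) and interferon-stimulated genes (median -0.02, 0 of 22 called) had no member called. Complement genes had a median of -0.09 with all 7 and 0.46 with f and g, with 0 of 16 called.

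Day 19 replicate c stood apart in these lists. Its Ptprc, the pan-leukocyte gene CD45, was at 29.3 CPM against 169 and 168 CPM in a and b, and 142 to 723 CPM at day 14. Without c the median of the neutrophil list was -2.38, that of the monocyte and macrophage list -0.65 and that of the interferon list 0.37. The same wound had 68440 CPM of summed skeletal muscle transcripts, against 1285 and 5956 CPM in a and b and 104.7 to 29210 CPM at day 14. Acta1, skeletal muscle actin, was at 11860 CPM there. The part that muscle in the punch takes in the lower leukocyte share of that wound was not tested.

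**Figure D4:**
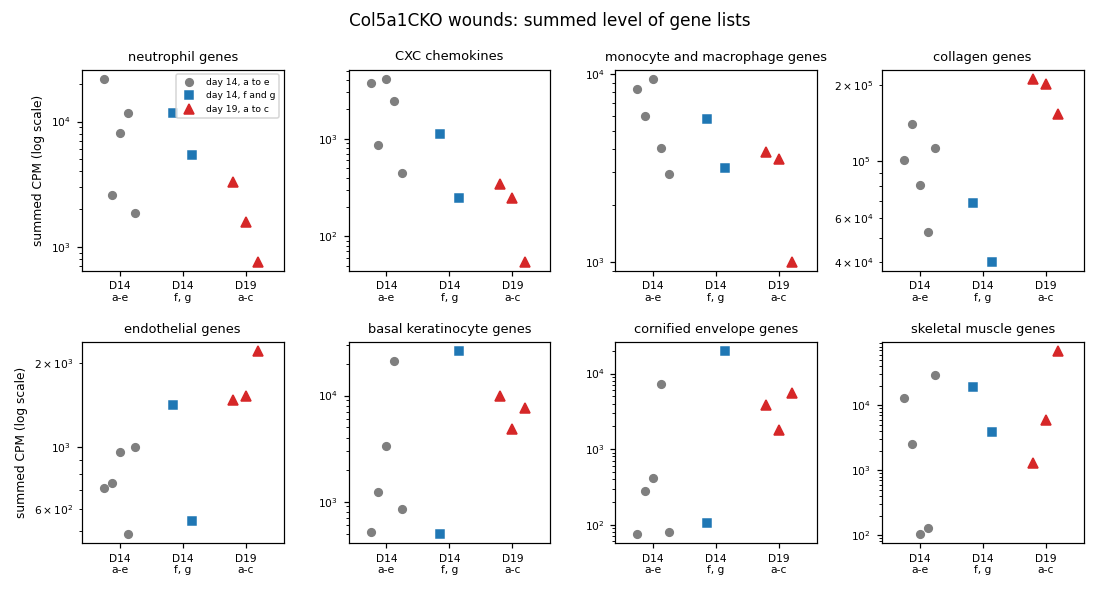
Summed CPM (log axis) of 8 gene lists in each Col5a1CKO wound, with day 14 a to e as grey circles, f and g as blue squares and day 19 as red triangles. Collagen and endothelial sums are highest at day 19 (collagen 154000 to 211600 CPM), neutrophil sums are spread from 1865 to 21930 CPM at day 14, and keratinocyte sums split the day 14 wounds into low and high.

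Epidermal genes gave no day difference that could be called. Keratinocytes reach the middle of a wound only when it closes, and Krt14, the basal layer keratin, was at 13550 and 18570 CPM in day 14 replicates d and g, at 8.81 to 1061 CPM in the other 5, and at 6163, 2720 and 5325 CPM at day 19. Krt1, a suprabasal keratin, was at 5110 and 18520 CPM in d and g, at 7.78 to 56.0 CPM in the other 5, and at 2515, 2079 and 8797 CPM at day 19. All day 19 wounds therefore lay above the 5 low day 14 wounds and below g for both keratins. The 14 basal genes had a median of -0.47 with all 7 and -0.94 with f and g, and 0 were called; with d and g left out, a choice made after their keratin counts were seen, the median was 1.10. The suprabasal list moved from -0.48 to 3.41 and the cornified envelope list of 40 genes from -0.47 to 4.37 in the same way. Since f is a low wound and g a high wound, with summed cornified envelope levels of 105.4 and 19830 CPM, the comparison with f and g cannot settle the direction. Dst, the plakin of hemidesmosomes, which other cells also express, was the exception among the 4 basal genes of highest level, at 169.6 to 436 CPM and then 567, 669.5 and 668 CPM, with an adjusted p of 0.0981.

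Muscle regeneration genes were low and uneven. All 9 muscle progenitor genes tested were positive in both fits, with a median of 2.47 with all 7 and 3.30 with f and g, and Myh3, the embryonic myosin heavy chain, was kept. It had 0, 0.632 and 5.86 CPM at day 14 and 8.39, 51.6 and 86.8 CPM at day 19. Myh8, the perinatal form, had up to 15.5 CPM at day 14 and 26.1, 45.4 and 128 CPM at day 19 (adjusted p = 0.0785). Both followed the order of the skeletal muscle sum within day 19.

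Many ribosomal protein genes fell. Of 78 tested, 41 were called lower and 0 higher, 21 were kept lower, and 47 were lower without overlap between days; over all genes tested these shares were 3.85%, 1.16% and 7.45%. The median was -1.16 with all 7 and -0.88 with f and g, and the median transcript in this list is 717 bp. With both trends removed the median was -0.53, and Rps14 and Rps15a were called. Rps14, a protein of the small subunit, had 558, 804 and 1240 CPM at day 14, with 1240 in f and 804 in g, and 151, 148 and 160.0 CPM at day 19, a log2 fold change of -2.56 (SE 0.29, adjusted p = 0.00776) and of -2.13 with both trends removed. Rpl39, Rpl5, Rpl22l1 and Rps27l were lower in f and g than in replicates a to e already at day 14; Rpl22l1 had 50.1 and 64.8 CPM in f and g, 209.7 to 277 CPM in a to e and 21.9 to 25.3 CPM at day 19. Many ribosomal protein genes have near-identical pseudogenes, and whether the assignment of their reads bears on these levels was not tested.

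Some further lists had a called member that was not kept, beside 3.85% of all genes called lower. Among 36 cell cycle genes Ccne2, a cyclin of the G1/S step, was called lower by edgeR at -2.02, among 25 glycolysis and hypoxia genes Pgk1, a glycolytic kinase, at -1.34, and among 28 Wnt pathway genes Rspo3, a Wnt amplifier, at -2.19. Of 8 keratin-associated protein genes 1 was called lower, and none could be tested against f and g. Of 10 cartilage, tendon and bone genes Thbs4, described above, was kept. Ccne2, Pgk1 and Rspo3 did not reach 2-fold against f and g, where they were at -0.67, -0.89 and -0.60. The medians of the 17 adipocyte, 12 Schwann cell, 7 red blood cell and 18 histone genes were 0.55, 0.70, -1.79 and -1.25 with all 7 and 0.30, 0.18, -2.66 and -0.76 with f and g, with 0 called in each. Without day 19 replicate c the adipocyte median was -1.58, so that wound sets its direction.

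The other lower genes with the smallest adjusted p had mostly short transcripts, apart from Commd2 at 2961 bp. Sec61g, a subunit of the channel that moves secreted proteins into the endoplasmic reticulum, had 25.4 to 38.9 CPM and then 10.5, 8.66 and 8.53 CPM, at -2.02 (SE 0.22). Ssr4, of the neighboring translocon-associated complex, was at -1.51 (SE 0.19). Beside Rps14 and Myeov2, which had 53.4 to 84.4 CPM and then 19.2, 19.4 and 23.2 CPM, the 10 include Rpl41, Commd6, Ccdc72, Commd2, 2900053A13Rik and Rps7, at -1.95 to -1.28 on the log2 scale. Commd6 went to 0.02 with both trends removed. The 10 leading higher genes beside Hspg2, Cspg4 and Col20a1 were Slc12a4, a potassium chloride cotransporter, Mll2, a histone methyltransferase, Mapk8ip3, a JNK scaffold, Plekhg2, Med12, a Mediator subunit, Pkd1, the polycystin-1 gene, and 9830001H06Rik. Their transcripts are 3832 to 19827 bp long and their values 1.18 to 1.96; with both trends removed they were 0.07 to 0.76.

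Of 12 genes of the circadian clock, chosen after their values were seen, 6 were kept higher, beside 1.39% of all genes. The choice makes this count a description only. The clock is a feedback loop in which Arntl and Clock proteins switch on Per and Cry genes, whose products then repress them. Per2 had 4.81, 13.8 and 22.1 CPM at day 14, with 10.7 in f and 4.81 in g, and 70.9, 84.3 and 81.2 CPM at day 19, a log2 fold change of 2.45 (SE 0.36, adjusted p = 0.00938) with all 7 and 3.30 (SE 0.46) with f and g. Per3 had 6.81 to 23.9 CPM and then 49.6, 58.8 and 91.4 CPM, Per1 30.6 to 63.1 CPM and then 139.8, 156 and 231 CPM, and Cry2 10.7 to 19.6 CPM and then 35.0, 42.6 and 57.8 CPM. None of these 4 overlapped between days, where 10.4% of all genes were higher without overlap. Tef and Dbp, output regulators of the clock, were kept at 1.41 and 1.76, with Dbp at an adjusted p of 0.0499 and overlapping. Arntl was at -0.95 (adjusted p = 0.0812), with 18.9 to 45.4 CPM at day 14 and 20.2, 14.2 and 10.5 CPM at day 19. Clock, Npas2, Nr1d1 and Cry1 were at -0.49 to 0.32 with all 7 and did not pass. Nr1d2, a repressor in the loop, changed sign: it was at -0.55 (adjusted p = 0.659) with all 7, at 1.90 (SE 0.33) with f and g, and at 1.84 with the library set as a covariate (edgeR adjusted p = 0.0282). With both trends removed Per2 was at 1.72 and Per1 at 0.72. The hour of day at which wounds were taken is not given in the sources used here.

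The Per1 promoter is printed since the E-box, CACGTG, which reads the same on both strands, is the element the Arntl and Clock proteins bind. In the upstream RefSeq window at chr11:69098699-69098998 on the plus strand (GRCm38.p6), the E-box, in capitals, occurs once and begins 166 bases before the start.
Per1: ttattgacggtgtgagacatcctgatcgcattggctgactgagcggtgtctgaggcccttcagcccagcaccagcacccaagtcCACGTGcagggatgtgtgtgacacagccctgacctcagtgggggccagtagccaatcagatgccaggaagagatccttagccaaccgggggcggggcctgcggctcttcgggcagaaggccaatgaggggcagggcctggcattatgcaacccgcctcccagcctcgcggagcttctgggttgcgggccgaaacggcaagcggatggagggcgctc
The other Per1 window at chr11:69099902-69100201 holds no E-box, nor do the windows of Per3 and Cry2, so 1 of 4 windows of 3 of these genes has it; Per2 has no entry. The letters occur in 7.15% of all 32851 windows.

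Whether these changes are particular to Col5a1CKO was asked in libraries of the same set, with 3 WT wounds at day 19 and WT replicates e to g at day 14 (Cre-negative Col5a1 fl/fl mice, wounded and given tamoxifen alike). Xist was at 0.671 to 0.826 CPM in the 3 WT day 14 wounds and at 0.739, 531 and 569 CPM at WT day 19, while every Col5a1CKO wound of the set expressed it, so sex moved with day in WT only and its part in these differences was not tested. Of 15919 genes, edgeR called 0 for a difference between the genotypes in their day change (smallest adjusted p = 0.14); 3124 passed an unadjusted p, and DESeq2 called 1178. Of the 210 kept higher genes, 163 were also at least 2-fold higher in WT, where 26.0% of all genes were. Of the 175 kept lower genes, 42 were at least 2-fold lower in WT, where 12.8% of all genes were. Matrix genes were higher by day 19 in WT of this set too: the collagen list's median was 2.68 there, and Col1a1 was at 3.18 beside 1.81 in Col5a1CKO. WT Col1a1 had 2354 to 2740 CPM in e to g and 19220, 4818 and 46070 CPM at day 19. WT day 14 replicates a to d, outside this set, had 5207 to 17540 CPM, so WT day 19 replicate b lay below them.

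Myeloid genes did not share 1 pattern between the genotypes, and none passed the test of the difference. The neutrophil-attracting chemokines had a median of 1.03 in WT beside -2.13 in Col5a1CKO with f and g. The monocyte and macrophage list had 1.79 beside -0.71, and the neutrophil list 1.0 beside -2.84. These WT medians rest on low day 14 levels in e to g for some members. Lyz2 had 222 to 395 CPM there and 1986, 68.8 and 3042 CPM at WT day 19. Cxcl2 had 2.22, 0.971 and 81.8 CPM in e to g and 3.62, 135 and 39.5 CPM at WT day 19. In WT day 14 replicates a to d, Lyz2 had 1753 to 2659 CPM and Cxcl2 1.295, 14.6, 1099 and 524 CPM. S100a8, S100a9, Mmp9 and Il1r2, however, were negative in WT as well, at -0.96, -1.07, -1.35 and -0.99, beside -1.93, -2.31, -1.36 and -2.82 in Col5a1CKO. The interleukin-1 list had a median of -1.37 in WT beside -1.50. Mmp8 and Mmp12 were low at day 14 in WT e to g. Mmp8 was at 0.282 to 1.81 CPM there and 0.895 to 3.50 CPM at WT day 19, against 20.6 and 147 CPM in Col5a1CKO g and f. Mmp12 was at 8.95 to 24.1 CPM in WT e to g and 364, 16.2 and 231 CPM at WT day 19. WT day 14 replicates a to d, outside this library set, had 417.6, 312.0, 320.7 and 310.4 CPM of Mmp12. Its difference between genotypes in this set, -6.40 on the log2 scale, had an unadjusted p of 0.000958 (edgeR adjusted p = 0.14). Rcan1 (chromosome 16, 92392198 to 92466391, minus strand, NCBI37), an inhibitor of the phosphatase calcineurin, is named after its values were seen. In Col5a1CKO it had 48.7, 62.7 and 117 CPM at day 14 and 374, 242 and 213 CPM at day 19, whereas in WT it had 158.5, 133.5 and 142 CPM in e, f and g and 82.7, 67.4 and 55.8 CPM at day 19. The difference of 2.73 had an unadjusted p of 0.000154 and an adjusted p of 0.14 with edgeR. Its rise in Col5a1CKO, 1.87 (SE 0.26) with all 7, was 1.62 with both trends removed.

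**Figure D5:**
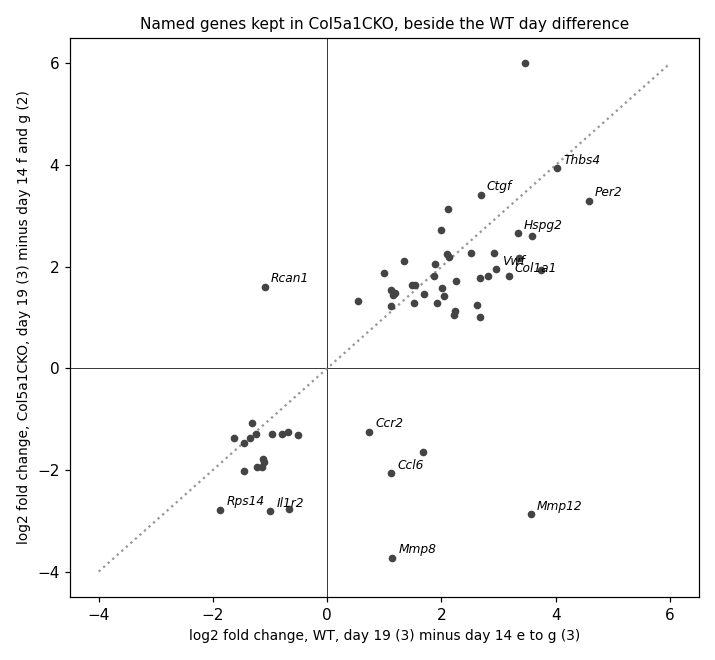
Log2 fold change from day 14 to day 19 of the named kept genes in Col5a1CKO (y axis, against f and g) and in WT wounds of the same library set (x axis), with a dotted line of equality. Of 62 genes, all but 6 have the same sign in both genotypes; Mmp12 (-2.88 and 3.56), Mmp8, Ccl6, Ccl9, Ccr2 and Rcan1 (1.60 and -1.09) lie in opposite ones.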

How the data were processed

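RNA of 3 day 19 and 7 day 14 wounds of Col5a1CKO mice was analysed, with WT wounds for reference. The authors deposited raw counts per RefSeq transcript; per the paper's methods, 50 bp single-end reads from a stranded kit were aligned to NCBI37/mm9 with HISAT2 and counted on exons with SeqMonk. The row with the largest total was kept for each of 22830 symbols, and 30 rows without a symbol (0.0492% of counts) were left out. Columns of the fibroblast recipients entered only the choice of row per symbol and the setting with all groups in one fit. The table of the cilengitide experiment was not used.

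The main test was the quasi-likelihood test of edgeR 4.0.16 (R 4.3.3), used in place of the study's DESeq2, with TMM scaling, robust dispersions and filterByExpr at min.count 10. A call needed a BH-adjusted p below 0.05 plus a 2-fold change. Levels are TMM-scaled CPM over the CKO and WT wounds of both days. RPKM was computed from kept rows. Alternatives were DESeq2 1.42.0, other size factors, no filter, 3-fold, other groupings, a replicate block and leaving out each library; trend removal (splines with 5 degrees of freedom on log2 length and GC) was chosen after seeing the data. Fits were tested on simulated data. GC content came from GENCODE transcripts. Exact tests used scipy 1.17.1. Members, gene lists and tests were chosen with earlier results of these data known. Named genes are Col5a1, Col1a1, in each direction the 10 kept genes lowest in adjusted p whose days did not overlap, and up to 6 members per list, kept ones first and then those with the highest mean CPM; others are marked as chosen after their values were seen. Same-letter wounds of the 2 days correlated at -0.382 to -0.209, so letters were not taken as pairs. No 2 libraries agreed within sampling noise. Each wound is labelled as a separate sample; the sources used here do not say which mouse it came from, so p-values measure the spread between these samples.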

Additional observations from a re-analysis of the deposited data

Results flagged for a closer look

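Among the 7 day 14 wounds, 11 of the 120 named genes examined had a highest or lowest wound whose gap to the next exceeded Dixon's 95% limit; chance alone gives about 1 in 20 such a gap. Replicate g was highest for Krt1 (18520 CPM), Krt10 (16040 CPM), Rcan1 (116.8 CPM) and Arntl (45.39 CPM). Replicate c was lowest for Myeov2 (53.39 CPM) and highest for Ctgf (292.8 CPM). Replicate b was highest for Fbn1 (3567 CPM). Replicate e was highest for Myh3 (5.864 CPM) and Acan (3.879 CPM), replicate f for Robo4 (32.12 CPM) and replicate d for Nr1d1 (85.64 CPM). Acan, the aggrecan gene of cartilage, named here after its values were seen, had 3.29, 13.8 and 1.70 CPM at day 19 and did not pass (edgeR adjusted p = 0.170).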

How the results depend on the processing

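Counts of genes moved with most settings (higher and lower, against all 7 wounds where 287 and 590 were called): DESeq2 gave 496 and 1140, a 3-fold limit 79 and 205, an unadjusted p 650 and 1413, the library set as a covariate 117 and 181, all groups in one fit 122 and 327, the length trend removed 78 and 115, both trends removed 3 and 6, and without d and g 985 and 1182. The replicate block on replicates a to c gave 978 and 1168, and the same wounds without the block 1535 and 1587, so the letters, which did not pair the wounds, were not used. Leaving out 1 library gave 0 to 490 and 0 to 1094; 0 in both directions came without day 19 a or without b, where fewer samples were left. Against f and g, where edgeR called 0 and 0, DESeq2 gave 1022 and 675, an unadjusted p 926 and 631 and all groups in one fit 81 and 207, and leaving out 1 library 0 to 0 in both directions. The kept counts, 210 and 175, became 342 and 416 with DESeq2, 60 and 45 at 3-fold, 447 and 450 unadjusted, 65 and 37 with the length trend removed, 3 and 5 with both trends removed, 721 and 409 without d and g, and 0 to 275 and 0 to 322 with 1 library left out. Genes called in both fits, 0 and 0 with edgeR, were 313 and 274 with DESeq2, 355 and 294 unadjusted, and 0 to 0 in both directions with 1 library left out. The count of genes whose day change differed from WT, 0, was 3124 unadjusted, 1178 with DESeq2, 45 with both sets and the set as a covariate, and 0 to 2383 with 1 library left out (2383 without Col5a1CKO day 14 g, 150 without WT day 19 b). The Col5a1 to Col1a1 ratio kept its direction throughout. Of 866 values of the 62 named kept genes under 14 other settings, 698 stayed called, 167 lost the call in the same direction and 1 turned: Commd6, 0.02 with both trends removed. The cause of these moves was not tested. With 3 wounds at day 19 and 1 library set shared by 2 day 14 wounds, low genes and the direction of epidermal lists are the least certain.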
